A study of Arabidopsis thaliana with 6 samples.

Results

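Histones are the proteins around which nuclear DNA is wound, and the genes described here are those of Arabidopsis thaliana whose deposited description names an Arabidopsis histone H1, H2A, H2B, H3 or H4. The search of the descriptions found 46 of 38192 genes. Of these, 41 are histone loci: 2 of H1, 13 of H2A, 11 of H2B and 15 of H3. The other 5 carry a histone name in their description without encoding a histone. ATX1 (AT2G31650) encodes an enzyme that methylates histone H3, and AT4G07507 and AT4G04408 are pseudogenes. AT1G07983 is a non-coding RNA gene that lies antisense to HTA3. AT5G12920 overlaps the H3-like gene AT5G12910 on the opposite strand. The search found 0 of the 8 H4 genes and missed the linker histone gene H1.3 (AT2G18050), because their descriptions cite proteins of other plants. These 9 loci were therefore given separately and are not counted among the 46.

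The plants were 9-day-old seedlings grown under 16 h of light and 8 h of dark, of which the aerial parts were taken. Transcripts were compared between the wild type, accession Col, and cpl2-2, whose label describes a knockout of CPL2, which encodes a protein related to the phosphatases of the RNA polymerase II tail. There were 3 biological replicates of each genotype and no other allele, transgene or treatment is given. The sources used here do not state where the lesion lies. As a check of the labels, CPL2 (AT5G01270) was counted 391, 378 and 393 times in wild type and 198, 229 and 222 times in the mutant libraries, so reads remained but every cpl2-2 library lay below every wild-type library.

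The core histones H2A, H2B, H3 and H4 form the nucleosome, and the linker histone H1 binds the DNA that enters and leaves it. Replication-coupled histones, among them plant H3.1, are made mostly in S phase and deposited behind the replication fork, whereas replacement variants such as H3.3 and H2A.Z are exchanged into chromatin at other times. H2A.X is phosphorylated at DNA breaks, H2A.W marks the heterochromatin of flowering plants, and CENH3 marks the centromere.

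Library totals ran from 18299294 to 21098728 counts. Levels are CPM, read counts scaled to a common library size with TMM factors, as mean ± SD over 3 libraries, and the levels of single genes are ranked per kilobase of the deposited gene length, while a limit of 50 CPM and sums over copies are in CPM. The word called stands for an adjusted p under 0.05 in edgeR's quasi-likelihood test, run on the 19302 genes with enough counts. The leaf markers RBCS1A, LHCB1.1 and CA1 summed to between 33900 and 35000 CPM in the wild type and between 26500 and 27900 CPM in cpl2-2. Markers of the shoot meristem (STM, CLV3 and WUS) summed to 3.41 to 4.49 CPM in the wild type and 6.6 to 8.16 CPM in cpl2-2, nearly all of it from STM, which rose (log2 fold change 0.91 with SE 0.17, adjusted p = 4.1e-05). The 4 root markers summed to 1.12 to 1.73 CPM in the wild type and 1.71 to 2.28 CPM in cpl2-2, with EXPA7 at 0 and CASP1 higher (0.538 ± 0.167 and 1.29 ± 0.315 CPM, adjusted p = 0.022). The summed level of the 3 pollen and sperm markers at most 0.48 CPM, with GEX2 at 0, and of the 3 seed storage markers at most 0.825 CPM, with SESA3 at 0. The part of a shifted mix of leaf, meristem and root cells in the values of the histone genes was not tested. In such bulk samples fewer cells of a type and less RNA per cell cannot be told apart.

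Most abundant histone genes fell slightly in cpl2-2, and a few scarce copies rose several-fold. Of the 46 genes, 39 had enough counts for the test, all but 4 of them histone loci. Among these 39, 8 were called higher (20.5%) and 15 lower (38.5%) in cpl2-2, where 14.1% of all genes tested were higher, 13.3% lower and 27.3% called in either direction. All 23 calls were in histone loci. The median log2 fold change of the 39 was -0.09, beside -0.0017 over all genes tested. The genotypes did not overlap in CPM for 28 of the 39 genes, 9 with every cpl2-2 library above and 19 with every cpl2-2 library below the wild type, against 39.0% of all genes tested.

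The called falls lay among the abundant genes. Of the 23 members with a mean of at least 50 CPM, 3 rose (13.0%) and 15 fell (65.2%), where 20.3% of all genes at such a level rose and 35.0% fell. Of the 16 tested members below that mean, 5 rose (31.2%) by edgeR. None of edgeR, DESeq2 and limma-voom found a fall (0 genes), while 1 was lower at an unadjusted p under 0.05. Over all genes tested, at any level, 14.1% rose and 13.3% fell, and the shares below 50 CPM were not counted. Small falls are harder to call at low counts, as in HTA8 (log2 fold change -0.32 with SE 0.13) and CENH3 (-0.22 with SE 0.2). Split per kilobase, of the 26 tested histone loci with at least 20 CPM per kb in the wild type 4 rose and 15 fell. Of the 9 below that level 4 rose and 0 fell by edgeR. The wild-type level is also the base of the fold change. A gene scarce only in the wild type therefore enters the group under 20 CPM per kb by construction. All genes were not split in the same way, so the split per kilobase cannot tie the direction of change to the level. When libraries were scaled by their totals alone, 11 of the 39 were higher and 14 lower, and over all genes 3952 were higher and 1666 lower in place of 2717 and 2560.

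**Figure D1:**
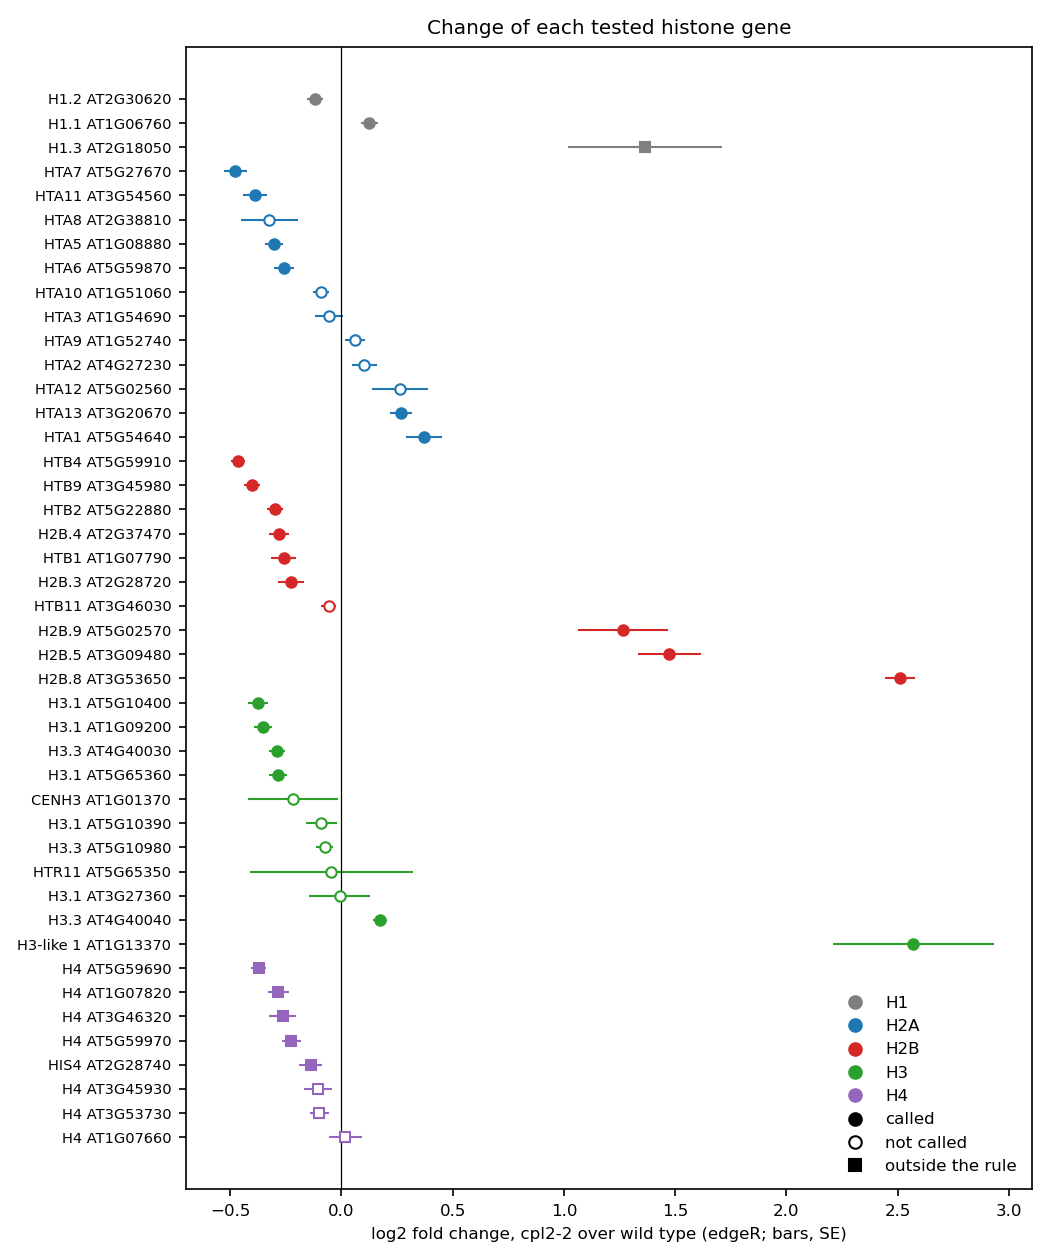
Log2 fold change of each tested histone gene in cpl2-2 over the wild type (horizontal axis; bars with SE of the edgeR fit), ordered within each class; filled symbols are called at an adjusted p under 0.05 and squares are loci outside the search of the descriptions. H2B.8 and H3-like 1 lie above 2.5, while the called falls end at -0.48.

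**Figure D2:**
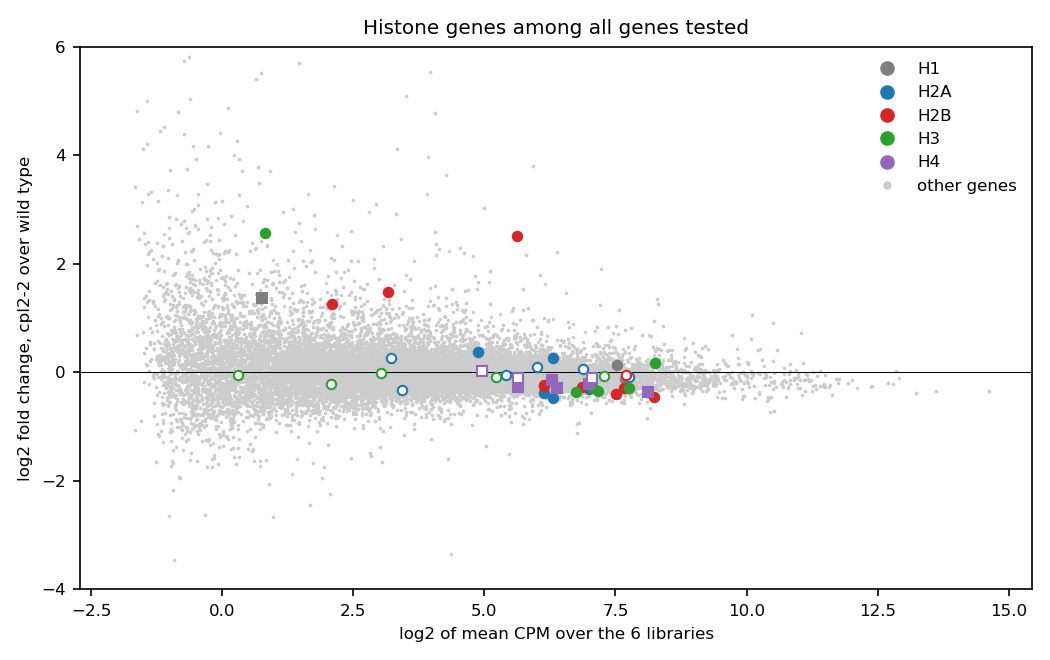
Log2 fold change in cpl2-2 over the wild type against the log2 of the mean CPM over the 6 libraries, with 19292 of the genes tested in the plotted range (10 lie outside the vertical axis) and histone genes coloured by class. The histone genes with rises over 1 on the log2 scale lie at low to middle levels, and the abundant histone genes lie within 0.5 of 0.

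H2B and H3 showed the widest ranges of log2 fold changes, from -0.46 to 2.51 for H2B and from -0.37 to 2.57 for H3. H2B pairs with H2A at the outer face of the nucleosome, and its tail carries the lysine that is ubiquitinated in transcribed genes. Of the 11 H2B loci, 10 were tested, of which 3 rose (30%), 6 fell (60%) and 1 was not called, with a median log2 fold change of -0.24. Over all genes tested 14.1% rose and 13.3% fell. The 6 H2B genes that fell had means of at least 50 CPM, a level at which 20.3% of all genes tested rose and 35.0% fell. The 3 that rose are named H2B.8 (AT3G53650), H2B.5 (AT3G09480) and H2B.9 (AT5G02570) in the deposited descriptions, a numbering that differs from that of the HTB symbols. Their symbols are HTB6, HTB7 and HTB10. The symbol HTB8 belongs to AT1G08170, described as H2B.2, and HTB9 to AT3G45980, described as H2B.6.

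The largest change among the H2B genes was that of H2B.8 (AT3G53650, TAIR10 chromosome 3, 19889297 to 19890251, plus strand, with 1 coding exon). Its level was 14.6, 15.1 and 14.2 CPM in the wild type and 82.4, 85.6 and 82.4 CPM in cpl2-2. The groups lay far apart and the replicates within each close together, and the rise was 5.71-fold (log2 fold change 2.51 with SE 0.067, adjusted p = 2.1e-32). Per kilobase the level went from 15.3 ± 0.495 to 87.4 ± 1.89 CPM, which took this copy from rank 8 of the 10 tested H2B genes to a level above that of H2B.3 (64.8 CPM per kb in cpl2-2) and HTB1 (75.2). Of the 5 genes annotated on each side of H2B.8, 8 were tested, 1 was higher and 1 lower.

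H2B.5 (AT3G09480, chromosome 3, 2914701 to 2915442, minus strand) had 3.76, 5.51 and 4.87 CPM in the wild type and 11.8, 13.3 and 14.1 CPM in cpl2-2. All cpl2-2 libraries were higher, by 2.78-fold (log2 fold change 1.47 with SE 0.14, adjusted p = 7.5e-12). H2B.9 (AT5G02570, chromosome 5, 576655 to 577176, minus strand) had 2.08, 2.24 and 3.22 CPM in the wild type and 6.46, 5.93 and 5.77 CPM in cpl2-2. Here too the groups did not overlap (2.4-fold; log2 fold change 1.26 with SE 0.2, adjusted p = 2.1e-06). H2B.9 overlaps the H2A.W gene HTA12 (AT5G02560) on the opposite strand, and the sources used here do not state whether counting was by strand, so reads of the 2 genes cannot be told apart with certainty. HTA12 itself was not called (8.5 ± 0.515 and 10.2 ± 0.695 CPM; adjusted p = 0.12).

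The abundant H2B copies moved the other way. HTB4 (AT5G59910, described as H2B.11) had 358, 350 and 335 CPM in the wild type and 251, 258 and 247 CPM in cpl2-2, a fall with no overlap (log2 fold change -0.46 with SE 0.033, adjusted p = 3.9e-16). HTB9 (AT3G45980), the most abundant histone gene of the 41 per kilobase with 286 ± 2.33 CPM per kb in the wild type, had 208, 209 and 206 CPM there and 154, 162 and 155 CPM in cpl2-2 (log2 fold change -0.40 with SE 0.036, adjusted p = 7.6e-13). The replicates of each genotype lay close together and the groups far apart. HTB2 (AT5G22880) fell from 220, 224 and 223 to 188, 176 and 179 CPM (log2 fold change -0.30), and AT2G37470 (H2B.4) from 129, 131 and 120 to 106, 106 and 102 CPM (-0.28). HTB1 (AT1G07790) had 75.8, 70.7 and 83.7 CPM in the wild type and 65, 61.1 and 66.3 CPM in cpl2-2 (-0.26). For these copies too every cpl2-2 library was below every wild-type library, by smaller margins.

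AT2G28720 (H2B.3) went from 85.2, 67.8 and 74.9 to 65.1, 65.6 and 64 CPM (log2 fold change -0.23, adjusted p = 0.0024), and its call rested on wild type replicate 1, the highest library, without which the adjusted p was 0.096. HTB11 (AT3G46030), whose protein is 96% identical to that of HTB9, had 214, 211 and 209 CPM in the wild type and 205, 208 and 197 CPM in the mutant and missed the threshold (log2 fold change -0.06 with SE 0.035, adjusted p = 0.23). The groups did not overlap, but the gap between them was smaller than the spread within either. AT1G08170 (H2B.2), a divergent H2B known from pollen and sperm, had 1 count in all 6 libraries together.

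**Figure D3:**
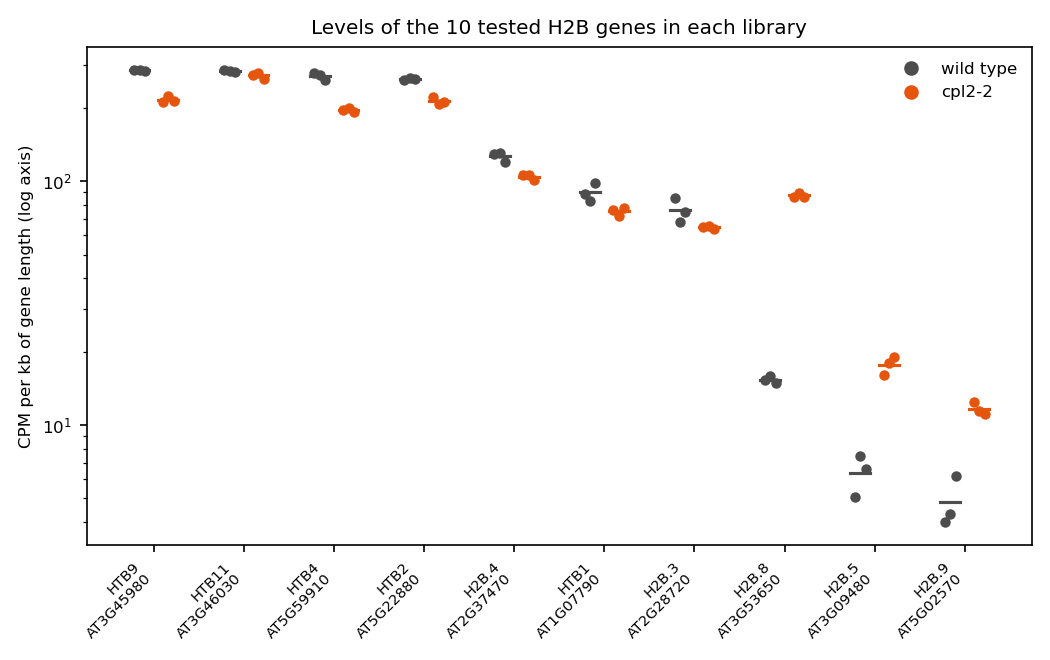
Level of each of the 10 tested H2B genes in CPM per kilobase of gene length on a log axis, ordered by the wild-type mean; points are libraries and short lines are means over 3 libraries. H2B.8 moves from 15.3 to 87.4 CPM per kb, into the range of the middle copies, while HTB9, HTB4 and HTB2 move from between 263 and 286 to between 196 and 216.

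Sums over copies are given here and for the other classes as a description, with no test. Over all H2B copies the level was 1291 ± 18.8 CPM in wild type and 1130 ± 15.5 CPM in cpl2-2, lower by 12.5%. H2B.5, H2B.8 and H2B.9, picked for this sum after their changes were seen, together had 21.9 ± 1.28 and 103 ± 2.06 CPM. The other copies had 1269 ± 19.9 and 1027 ± 15 CPM, lower by 19.1%. Of the H2B level per kilobase H2B.5, H2B.8 and H2B.9 made up 1.69, 1.95 and 1.96% in wild type and 9.06, 9.36 and 9.4% in cpl2-2. The protein of H2B.8 has 138 residues and is 80.7% identical to that of HTB4 and 92.1% identical to that of AT2G37470 (H2B.4), a gene that fell. Those of H2B.5 (126 residues) and H2B.9 (132 residues) are the shortest of the tested H2B proteins. The longest stretch of coding sequence that H2B.8 shares exactly with another histone gene is 47 bases. HTB9 overlaps annotated genes on the opposite strand, as do HTA13, HTA9 and HTA3 described further on, so their counts share the uncertainty named for H2B.9.

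Promoters were read from the RefSeq TAIR10.1 genome as the 250 bases before each annotated gene start. Plant histone promoters are known for a handful of short elements, of which the octamer CGCGGATC and the hexamer core ACGTCA were searched on both strands. The octamer stood in 8 of the 40 histone promoters found (20%) and in 0.135% of the promoters of all 27443 protein-coding genes. It was present in 3 of 8 genes that rose and 4 of 15 that fell, and in 0 of the 11 H2B promoters. The hexamer core stood in 8 of the 11 H2B promoters, in 0 of the 13 H2A promoters and in 7.69% of all promoters. Among H2B genes it was present both in copies that rose (H2B.8 and H2B.9) and in copies that fell (HTB1, HTB2, HTB9, AT2G28720 and AT2G37470). The nonamer CATCCAACG stood in 0 histone promoters and 0.149% of all, and the E2F forms (TTTCCCGC, TTTGGCGC, TTTCGCGC, TTTGCCGC, TTTGGCGG, TTTCCCGG, TTTCGCGG and TTTGCCGG) in 1 of the 40, that of HTB2, and in 2.8% of all. A match is a string of letters and not a bound site.

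The promoters of an H2B gene that rose, an H2B gene that fell and an H3.1 gene that fell are shown to set their elements side by side, 5′ to 3′ on the strand of the gene and ending at the base before its annotated start, with matches to the hexamer core or the octamer in capitals. They are those of H2B.8 (chr3:19889047-19889296, plus strand), HTB9 (chr3:16898014-16898263, minus strand) and the H3.1 gene AT1G09200 (chr1:2972335-2972584, minus strand), in TAIR10.1 coordinates.
H2B.8: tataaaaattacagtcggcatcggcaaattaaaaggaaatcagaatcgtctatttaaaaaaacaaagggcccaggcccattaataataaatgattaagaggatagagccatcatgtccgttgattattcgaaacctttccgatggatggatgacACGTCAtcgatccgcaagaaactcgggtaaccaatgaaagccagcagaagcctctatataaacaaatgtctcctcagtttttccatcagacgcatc
HTB9: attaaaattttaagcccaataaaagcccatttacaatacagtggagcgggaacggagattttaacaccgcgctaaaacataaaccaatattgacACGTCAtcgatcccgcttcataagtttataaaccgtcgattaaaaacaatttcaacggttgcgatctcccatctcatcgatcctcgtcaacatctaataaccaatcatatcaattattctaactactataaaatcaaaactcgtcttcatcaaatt
AT1G09200: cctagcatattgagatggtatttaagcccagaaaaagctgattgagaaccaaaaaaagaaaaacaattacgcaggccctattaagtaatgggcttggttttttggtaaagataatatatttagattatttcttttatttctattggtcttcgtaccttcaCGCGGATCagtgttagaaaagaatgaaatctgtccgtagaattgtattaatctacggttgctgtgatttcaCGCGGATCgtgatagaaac
Each H2B promoter holds the hexamer core once, and the H3.1 promoter holds the octamer at 2 positions.

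H3 holds the tail residues on which most known histone marks are set, and its genes are described by variant. The 5 H3.1 genes, which the deposited descriptions call H3.2, encode 1 identical protein, and so do the 3 H3.3 genes. Both proteins have 136 residues with the start methionine and differ at 4 positions, 31, 41, 87 and 90, counted from 1 at the residue after the start. The coding sequence around these codons is shown because it is what separates the variants, on the coding strand of TAIR10.1 with the 4 codons in capitals. Codons 29 to 43 come from AT1G09200 (chr1:2972001-2972045, H3.1), AT4G40040 (chr4:18558018-18558062, H3.3) and AT1G13370 (chr1:4588391-4588435, H3-like 1), all on the minus strand, and codons 85 to 92 from chr1:2971854-2971877, chr4:18557671-18557694 and chr1:4588058-4588081.
H3.1, codons 29 to 43: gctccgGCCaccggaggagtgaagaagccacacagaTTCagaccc
H3.3, codons 29 to 43: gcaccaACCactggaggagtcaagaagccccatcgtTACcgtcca
H3-like 1, codons 29 to 43: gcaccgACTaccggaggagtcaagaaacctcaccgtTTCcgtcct
H3.1, codons 85 to 92: cagagcAGTgccgtcGCCgctctt
H3.3, codons 85 to 92: cagagcCATgctgtgCTTgcactc
H3-like 1, codons 85 to 92: caaagcCATgcagtgTTAgctctt
The H3-like 1 protein differs from H3.1 at 9 positions, among which 31, 87 and 90 hold the residue of H3.3 and 41 that of H3.1.

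Of the 5 H3.1 genes, 3 fell (60%), 0 rose and 2 did not pass, in edgeR as in DESeq2 and limma-voom, and 0 were higher even at an unadjusted p under 0.05. By edgeR 13.3% of all genes tested fell and 14.1% rose, and 35.0% fell among those with a mean of at least 50 CPM. AT1G09200, the most abundant H3.1 gene per kilobase (211 ± 3.25 CPM per kb in the wild type), had 164, 160 and 159 CPM in the wild type and 120, 128 and 131 CPM in cpl2-2 (log2 fold change -0.35 with SE 0.04, adjusted p = 8e-10). AT5G10400 had 122, 123 and 121 CPM against 95.8, 97.2 and 89.1 CPM (-0.37 with SE 0.044, adjusted p = 2.6e-09), and AT5G65360 had 152, 148 and 141 CPM against 118, 122 and 122 CPM (-0.29 with SE 0.041, adjusted p = 2.1e-07). In all 3 the lowest wild-type library lay above the highest cpl2-2 library. The scarcer copies AT5G10390 (38.4 ± 1.28 and 36 ± 2.92 CPM) and AT3G27360 (8.16 ± 0.887 and 8.11 ± 0.535 CPM) overlapped between genotypes. The 5 genes encode the same protein, and a sum over them does not depend on how reads were shared out among them, though it would change if shared reads were discarded. AT3G27360 also overlaps AT3G27380 on its own strand. The sum was 485, 478 and 467 CPM in the wild type and 375, 395 and 386 CPM in cpl2-2, lower by 19.2%.

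The 3 H3.3 genes went in different directions. AT4G40040 rose from 292, 285 and 282 to 320, 321 and 328 CPM (log2 fold change 0.17 with SE 0.032, adjusted p = 2.2e-05). Its neighbour AT4G40030, which starts 43 bases beyond its end on the same strand, fell from 244, 226 and 243 to 197, 198 and 187 CPM (-0.29 with SE 0.036, adjusted p = 6.7e-09). Neither gene overlapped between genotypes, and the longest exact stretch their coding sequences share is 47 bases. AT5G10980, the most abundant H3.3 gene per kilobase (194 ± 5.69 CPM per kb), had 162, 161 and 154 CPM in the wild type and 149, 151 and 153 CPM in the mutant and missed the threshold (-0.07 with SE 0.038, adjusted p = 0.16). Their sum was 698, 672 and 678 CPM in the wild type and 666, 670 and 669 CPM in cpl2-2, a ratio of 0.979 with TMM factors and 1.03 with library totals, so its direction turns with the scaling.

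Within a library the balance of the variants does not depend on that scaling. H3.3 made up 46.9, 46.5 and 47.1% of the H3 level per kilobase in wild type and 51.8, 50.5 and 51.1% in cpl2-2, and H3.1 52.7, 53.1 and 52.4% against 47.6, 48.5 and 48.1%. Per kilobase, H3.3 was the smaller share in every wild-type library and the larger in every cpl2-2 library. Which variant is the larger depends on the division by gene length. In summed CPM, H3.3 exceeded H3.1 in both genotypes (683 against 477 CPM in wild type, 668 against 385 CPM in cpl2-2). With 3 libraries against 3 an exact permutation test cannot give a p below 0.1, so no p is given.

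H3-like 1 (AT1G13370, chromosome 1, 4587780 to 4588661, minus strand) had the largest log2 fold change of the histone genes, at a low level. Its counts were 7, 8 and 16 in wild type and 36, 80 and 69 in the mutant libraries, so every cpl2-2 library held more (log2 fold change 2.57 with SE 0.36, adjusted p = 1.3e-07). The ratio of the summed counts, 31 and 185, was 6.05 with a 95% interval of 4.12 to 9.16, which covers counting error only. At 3.02 ± 0.979 CPM in cpl2-2 it still made up only 0.406 ± 0.126% of the H3 level per kilobase. HTR11 (AT5G65350), an H3.1-like gene beside AT5G65360, was not called, with counts of 31, 20 and 26 in wild type and 17, 36 and 21 in the mutant libraries. CENH3 (AT1G01370), the centromeric H3, was counted 75, 84 and 120 times in wild type and 70, 97 and 70 times in the mutant libraries, with overlapping groups (log2 fold change -0.22 with SE 0.2, adjusted p = 0.47).

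The remaining H3 loci were near or at 0. MGH3 (AT1G19890), the H3 of the male germ line, had 1 count over the 6 libraries, AT1G75600 (H3-like 3) had 2, AT5G12910 (H3-like 4) had 4, all in wild type replicate 2, and the pseudogene AT1G75610 had 5, of which 4 in cpl2-2. AT5G12910 is overlapped on the opposite strand by AT5G12920, so its few counts are uncertain too.

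H2A variants were told apart by their names and tails, the H2A.X proteins holding the motif known from H2A.X and the H2A.W proteins that of H2A.W. Of the 13 H2A loci 12 were tested, of which 2 rose (16.7%), 4 fell (33.3%) and 6 were not called. Over all genes tested 14.1% rose and 13.3% fell, so the share of H2A genes that rose was near that of all genes. The 4 H2A genes that fell had means of at least 50 CPM, a level at which 20.3% of all genes tested rose and 35.0% fell. Both genes that rose encode canonical H2A and 0 of the tested variant genes rose by edgeR, DESeq2 or limma-voom, with 1 (HTA12) higher at an unadjusted p under 0.05. With so few genes this does not set canonical H2A apart from the variants. With library totals 5 H2A genes were called higher, HTA2, HTA9 and HTA12 being added.

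HTA13 (AT3G20670) rose from 70.3, 72.7 and 71.4 to 85.6, 85.2 and 87.1 CPM (log2 fold change 0.27 with SE 0.049, adjusted p = 2.6e-05). HTA1 (AT5G54640), also called RAT5 and known for a part in Agrobacterium T-DNA integration, rose from 28.4, 27 and 21.6 to 35.9, 32.5 and 31.4 CPM (0.37 with SE 0.082, adjusted p = 0.00036). Both were higher in every cpl2-2 library. HTA10 (AT1G51060), the most abundant H2A gene per kilobase (267 ± 5.8 CPM per kb), had 224, 230 and 220 CPM in the wild type and 216, 218 and 198 CPM in cpl2-2 and missed the threshold (-0.09, adjusted p = 0.051). It shares an exact coding stretch of 87 bases with HTA13, so the split of reads between these 2 genes is uncertain. HTA10 passed the threshold in 5 of the 12 alternatives, with adjusted p-values down to 0.013 without cpl2-2 replicate 2. HTA2 (AT4G27230) had 62.1 ± 3.84 and 66.7 ± 2.44 CPM and overlapped between genotypes.

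Both abundant H2A.W genes fell. HTA6 (AT5G59870) had 147, 129 and 142 CPM in the wild type and 118, 121 and 111 CPM in cpl2-2 (log2 fold change -0.26 with SE 0.045, adjusted p = 9.2e-06). HTA7 (AT5G27670) had 91.4, 92.1 and 92.5 CPM against 67.9, 62.5 and 68.2 CPM (-0.48 with SE 0.05, adjusted p = 1e-10), the largest fall among the called histone genes. The summed H2A.W level, 246, 230 and 243 CPM in the wild type, was 196, 193 and 190 CPM in cpl2-2, lower by 19.6%.

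Of the 2 H2A.X genes, HTA5 (AT1G08880) fell from 140, 140 and 144 to 111, 118 and 114 CPM (log2 fold change -0.30 with SE 0.041, adjusted p = 5.4e-08). HTA3 (AT1G54690) had 43.7 ± 0.941 and 42 ± 1.89 CPM with overlapping groups (adjusted p = 0.56), and it is overlapped on the opposite strand by AT1G07983. The summed H2A.X level was lower by 15.4%.

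Among the H2A.Z genes HTA11 (AT3G54560) fell from 84.7, 78.9 and 76.1 to 62.9, 62.2 and 58.1 CPM (log2 fold change -0.39 with SE 0.054, adjusted p = 1.2e-07), with no overlap. HTA9 (AT1G52740), the most abundant H2A.Z gene per kilobase (136 ± 2.19 CPM per kb), had 116, 113 and 116 CPM in the wild type and 119, 127 and 113 CPM in cpl2-2, and the groups overlapped (0.06 with SE 0.044, adjusted p = 0.32). HTA8 (AT2G38810) had 14.7, 10.7 and 10.3 CPM against 9.66, 8.44 and 10.4 CPM (-0.32, adjusted p = 0.057), and passed the threshold with no filter on low counts (adjusted p = 0.04), without wild type replicate 2 (0.039), without wild type replicate 3 (0.023) or without cpl2-2 replicate 3 (0.034). HTA4 (AT4G13570) had 0 counts in all libraries. The summed level went from 206 ± 7.7 to 190 ± 8.46 CPM, and every cpl2-2 library lay below every wild-type library.

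H1.1 and H1.2 are the main linker histones and moved apart by little. H1.1 (AT1G06760) had 180, 174 and 174 CPM in the wild type and 190, 201 and 186 CPM in cpl2-2 (log2 fold change 0.13 with SE 0.037, adjusted p = 0.007). H1.2 (AT2G30620) had 220, 208 and 216 CPM against 198, 197 and 198 CPM (-0.12 with SE 0.035, adjusted p = 0.0069). Neither overlapped between genotypes, but both calls were fragile. That of H1.1 was lost without cpl2-2 replicate 2 (0.09, adjusted p = 0.064), and that of H1.2 with library totals (-0.05, adjusted p = 0.29) and without wild type replicate 1 (adjusted p = 0.054). An opposite-strand gene overlaps each of them. Their sum was 391 ± 8.62 CPM in the wild type and 390 ± 7.61 CPM in cpl2-2.

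H1.3 (AT2G18050), a shorter linker histone known as stress-inducible and outside the 46 genes, was counted 8, 32 and 18 times in wild type and 56, 44 and 47 times in the mutant libraries. Every cpl2-2 library held more than every wild-type library (log2 fold change 1.36 with SE 0.35, adjusted p = 0.0019; ratio of summed counts 2.57, 95% interval 1.88 to 3.54).

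The 8 H4 genes, also outside the 46, encode 1 identical protein of 103 residues. Of them 5 fell and 0 rose by edgeR, with 4 and 0 by DESeq2, 5 and 0 by limma-voom, and 0 higher at an unadjusted p under 0.05. By edgeR 13.3% of all genes tested fell and 14.1% rose. Among those with a mean of at least 50 CPM, 35.0% fell and 20.3% rose. The most abundant H4 gene, AT5G59690 (420 ± 10.8 CPM per kb in the wild type), had 319, 304 and 316 CPM there and 235, 251 and 240 CPM in cpl2-2 (log2 fold change -0.37 with SE 0.033, adjusted p = 9.8e-13). AT1G07820 fell from 93, 87.8 and 94.2 to 74.2, 77.6 and 74.3 CPM (log2 fold change -0.28), and AT3G46320 from 54.9, 55.4 and 54 to 45.4, 43.2 and 48.4 CPM (-0.26). AT5G59970 fell from 135, 137 and 141 to 122, 116 and 116 CPM (-0.22), and HIS4 (AT2G28740) from 84.4, 79.7 and 81.2 to 70.4, 77.5 and 74.9 CPM (-0.14). In each of these every cpl2-2 library lay below every wild-type library, by the least in HIS4. AT3G53730, AT3G45930 and AT1G07660 had log2 fold changes of -0.10, -0.10 and 0.02 and were not called. The call of HIS4 (adjusted p = 0.037) was lost with DESeq2 (0.056), with library totals (0.33) and on leaving out any 1 of 4 libraries, namely wild type replicate 1 (0.15) or 3 (0.062), or cpl2-2 replicate 1 (0.21) or 3 (0.055). Exact coding stretches of up to 147 bases are shared between H4 copies, so single copies are uncertain; their sum was 911, 881 and 906 CPM in the wild type and 742, 790 and 757 CPM in cpl2-2, lower by 15.2%.

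**Figure D4:**
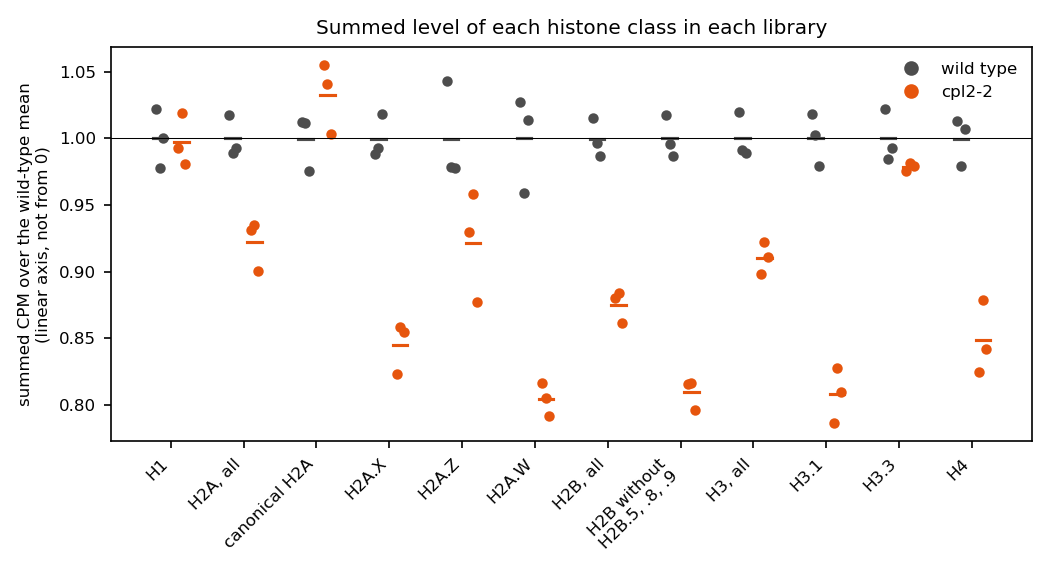
Summed CPM of each histone class and variant in each library, divided by the wild-type mean (vertical axis, not from 0); points are libraries and short lines are means over 3 libraries. H2A.W, H3.1 and the H2B copies other than H2B.5, H2B.8 and H2B.9 lie near 0.8 in cpl2-2, whereas H1, canonical H2A and H3.3 lie near 1.

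Summed over the 41 histone loci the level was 3933, 3829 and 3825 CPM in the wild type and 3516, 3563 and 3471 CPM in cpl2-2, lower by 8.95%. By class it was lower by 7.78% for H2A, 12.5% for H2B, 8.95% for H3 and 15.2% for the H4 genes, and in each of these every cpl2-2 library lay below every wild-type library. Canonical H2A had 396 ± 10.3 CPM in cpl2-2 and 384 ± 8.1 CPM in the wild type, a difference about the size of the spread. With library totals the ratios of the sums of H2A, H2B, H3 and H4 were closer to 1 but still below it, from 0.889 for H4 to 0.967 for H2A. That of H1 went from 0.998 to 1.05.

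Genes that act with histones during replication were described by 2 lists. Of 26 DNA replication genes, all tested, 7 fell and 0 rose by edgeR, with 6 and 0 by both DESeq2 and limma-voom, and with 9 lower and 0 higher at an unadjusted p under 0.05. The share of all genes at that unadjusted threshold was not counted, so these last numbers have nothing to be set beside. Their median log2 fold change was -0.19. The 4 called genes with the smallest p were TSO2 (AT3G27060) and RNR2A (AT3G23580), small subunits, and RNR1 (AT2G21790), the large subunit, of the ribonucleotide reductase that makes deoxyribonucleotides, and MCM7 (AT4G02060) of the replicative helicase. TSO2 fell from 82.9 ± 3.42 to 68.1 ± 2.38 CPM (log2 fold change -0.28, adjusted p = 1.9e-05), RNR1 from 48.5 ± 2.57 to 37.8 ± 2.51 CPM (-0.36, adjusted p = 2.2e-05), RNR2A from 35.8 ± 2.88 to 28.2 ± 0.638 CPM (-0.34, adjusted p = 0.0002) and MCM7 from 25.7 ± 2.42 to 20.6 ± 1.66 CPM (-0.32, adjusted p = 0.0038). The share of the list that fell was 26.9%, beside 13.3% of all genes tested. The sliding clamp genes PCNA1 (27.1 ± 1.68 and 24.9 ± 2.62 CPM) and PCNA2 (26.4 ± 1.38 and 23.8 ± 0.779 CPM) were not called. TSO2 and MCM7 overlap a gene on their own strand, and MCM7 and RNR2A one on the other strand.

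Of 23 genes for histone chaperones and variant exchange, all tested, 1 rose (4.35%) and 5 fell (21.7%), beside 14.1% and 13.3% of all genes tested, with a median log2 fold change of -0.17. At an unadjusted p under 0.05, 1 was higher and 9 were lower, again without a share of all genes counted at that threshold. SPT16 (AT4G10710), a subunit of the FACT complex that takes nucleosomes apart for polymerases, rose from 44.9 ± 0.795 to 54.4 ± 1.44 CPM (log2 fold change 0.28, adjusted p = 0.00028), whereas its partner SSRP1 was not called (-0.06, adjusted p = 0.57). NRP1 (AT1G74560) fell from 98.8 ± 3.95 to 85.7 ± 3.09 CPM (-0.20, adjusted p = 0.00069) and NRP2 (AT1G18800) from 47.8 ± 1.5 to 39.9 ± 1.02 CPM (-0.26, adjusted p = 0.0012), both H2A-H2B chaperones, NRP1 overlapping genes on both strands. FAS1 (AT1G65470), the large subunit of the CAF-1 complex that deposits H3.1 at the fork, fell from 8.13 ± 1.15 to 5.47 ± 0.921 CPM (-0.57, adjusted p = 0.005), a call lost without cpl2-2 replicate 1 (adjusted p = 0.051). The H3.3 chaperone gene HIRA was not called (-0.03, adjusted p = 0.88).

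**Figure D5:**
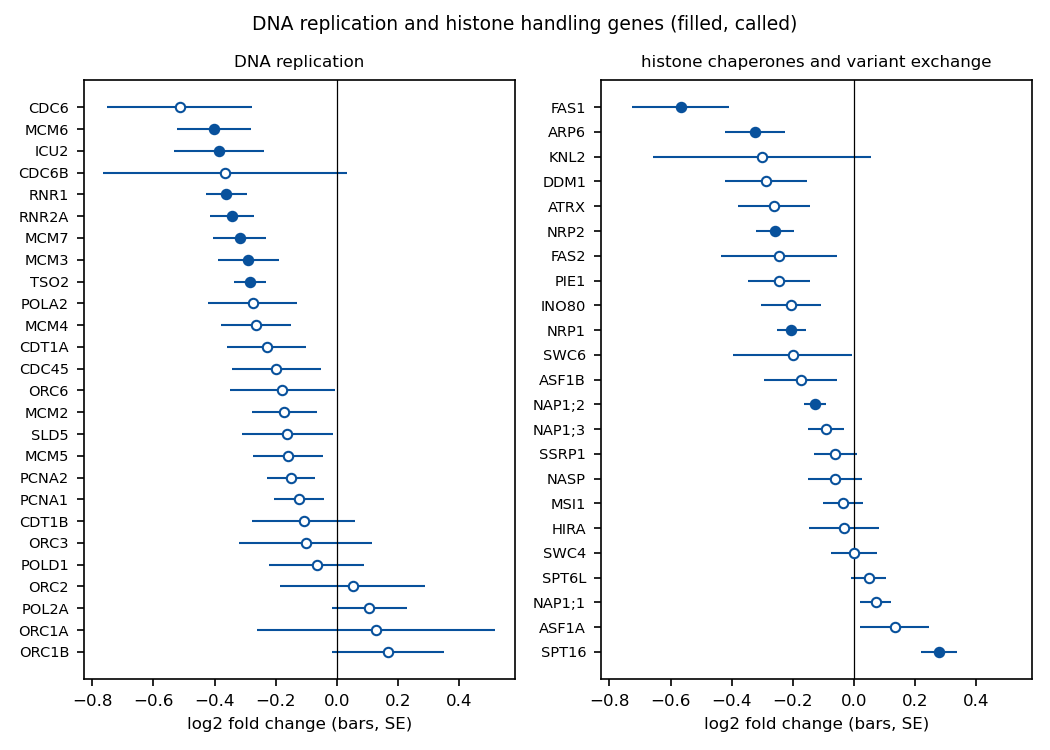
Log2 fold change in cpl2-2 over the wild type (horizontal axes; bars with SE of the edgeR fit) for 26 DNA replication genes and 23 histone chaperone and variant exchange genes, each ordered by its change; filled points are called at an adjusted p under 0.05. Filled points lie left of 0 in both panels except SPT16 at 0.28.

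None of the 5 genes found by their descriptions that encode no histone was called, and AT4G04408 was not tested. Over all genes tested 27.3% were called, and so few genes cannot be told apart from that share. ATX1 had 5.36 ± 0.298 CPM in the wild type and 6.09 ± 0.967 CPM in cpl2-2, the pseudogene AT4G07507 had 4.34 ± 0.314 and 3.45 ± 0.131 CPM without overlap (adjusted p = 0.23), AT5G12920 and AT1G07983 had overlapping groups, and AT4G04408 had 0 counts.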

How the data were processed

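RNA of 6 libraries, 3 per genotype, was sequenced from libraries made with a kit that keeps the strand, per the labels' protocols. The authors deposited whole-number read counts per gene with no normalization, the unit being read from the deposited values. The submitters' processing notes name HISAT2 2.0.5 and TAIR10. How reads were counted, with which annotation and whether by strand, is unstated in the sources at hand.

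Genes were found by the words of the deposited description, and classes and variants were assigned by locus. The histone genes, the 2 context lists and the tests were chosen with earlier results of these data known. Symbols and sequences came from the RefSeq TAIR10.1 annotation, in which 37570 of 38192 identifiers matched, 37566 of them with the same coordinates. Of several coding forms the one most transcripts share was used, and proteins were compared by global alignment.

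Counts were fitted with genotype as the only term in edgeR 4.0.16 (R 4.3.3), with TMM factors, filterByExpr, the quasi-likelihood F test and Benjamini-Hochberg adjustment over the 19302 genes tested. All adjusted p-values come from it unless another tool is named. The scripts were tested on simulated data. Log2 fold changes are cpl2-2 over wild type. At this depth 1 CPM is about 20 counts in a library, and intervals cover counting error only. Pairs of libraries of 1 genotype differed by more than sampling noise (chi-square of 2.71 to 3.72 per degree of freedom), so all were kept as replicates. Each called gene and the most abundant gene of each class and variant are given in every library and the other genes as counts or means, with up to 4 called genes with the smallest p from each context list. Alternatives were library totals, DESeq2 1.42.0, limma-voom (limma 3.58.1), other filters on low counts, a replicate block and leaving out each library.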

Additional observations from a re-analysis of the deposited data

How the results depend on the processing

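The counts of 8 histone genes higher and 15 lower and their median log2 fold change of -0.09 stayed within 1.5 times, or within the spread between replicates, under all 12 alternative settings, and also with the 2 added after seeing the data: restricting the set to the 41 histone loci (8 higher, 15 lower) and adding the H4 genes and H1.3 (9 higher, 20 lower). Without 1 library, 7 to 8 were higher and 13 to 17 lower, with a median of -0.12 to -0.06. With library totals the median of the histone genes shrank by more than 1.5 times, nearly to no change. It then stayed only within the spread between replicates. The same held for the median of H3, so the size of both medians depends on the scaling. Of the 23 called genes, 20 kept their call under all 12, and no sign of a called gene reversed. The replicate numbers of the labels did not pair the libraries (correlations of deviations of -0.012, 0.01 and 0.013), and with them as a replicate block 8 were higher and 16 lower.

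With library totals, H1 had 0 genes lower, H2A 5 higher and the chaperone list 2 higher. The medians were then 0.07 for H1, -0.01 for H2A, -0.17 for H2B, -0.11 for H4, -0.11 for the chaperone list, 0.25 for canonical H2A, -0.11 for H2A.X, -0.19 for H2A.W, -0.22 for H3.1 and -0.01 for H3.3, and that of H2B was -0.26 with no filter on low counts. Ratios of summed levels with library totals were 1.05 for H1, 0.967 for H2A, 0.917 for H2B, 0.954 for H3, 0.889 for H4, 1.08 for canonical H2A, 0.886 for H2A.X, 0.966 for H2A.Z, 0.843 for H2A.W, 0.847 for H3.1, 1.03 for H3.3, 0.954 for the 41 loci, 4.92 for H2B.5, H2B.8 and H2B.9 together and 0.848 for the other H2B genes. That scaling moved the median of all genes from -0.0017 to 0.07, by its construction.

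Without 1 library, H1 had 0 to 1 genes higher and 0 to 1 lower, and the chaperone list 3 to 6 lower. Medians ranged from -0.28 to -0.21 for H2B, -0.29 to -0.06 for H3, -0.21 to -0.10 for the chaperone list, -0.42 to -0.15 for H2A.Z, -0.32 to -0.26 for H3.1 and -0.10 to -0.06 for H3.3. Apart from the scaling and the omitted libraries, the cause was not tested. Genes at a few counts, such as H3-like 1 and H1.3, are limited by depth.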
